A study of Mus musculus with 2 samples.

Results

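The 39 Hox genes of the mouse and the limb identity genes Pitx1, Tbx4 and Tbx5 were followed in long-read RNA sequencing of the gastrocnemius, the large calf muscle of the hindlimb. They were chosen by symbol, as protein-coding genes named Hoxa, Hoxb, Hoxc or Hoxd with a number, plus the 3 limb genes. That gave 42 of the 55536 mouse genes listed in both libraries' annotations. The muscle came from male B6CASTF1/J mice aged 4 days, a hybrid of C57BL/6J and CAST/EiJ parents, and there were 2 libraries of a single group, biological replicates 1 and 2. Each library was made from 2 µg of total RNA, and the labels name neither a treatment nor an engineered allele. Both replicates name the same donor entry, and the labels give each its own biosample. Whether they came from separate animals cannot be told from the labels. Each SD therefore measures only the spread between these libraries, which may be technical. The p-values of Fisher's exact test hold counting error only, and none of them measures a spread between animals. With 1 group there was no comparison of conditions, and the only contrast was replicate 1 against replicate 2.

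Hox genes encode homeodomain transcription factors and lie in clusters named Hoxa to Hoxd, in which each gene's paralog number gives its position. Along each cluster the order of the genes follows where they act along the body and limb axes. In the mouse limb, paralog groups 9 and 10 act in the upper segment, group 11 in the middle segment that holds the calf, and group 13 in the foot. Pitx1 is a homeodomain factor and Tbx4 a T-box factor of the hindlimb, whereas Tbx5 is the T-box factor of the forelimb.

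A count is 1 long read assigned to a transcript model, so counts of different genes were set side by side without division by length. Replicate 1 held 998659 counts on annotated mouse genes and replicate 2 held 1026257, and CPM scales each count to those totals. At that depth 1 count is close to 1 CPM, and a gene at 0 counts could still have a level of up to 3.00 CPM in replicate 1 and 2.92 CPM in replicate 2 (a limit of 3 counts, which is lower than the upper ends of 3.69 and 3.59 CPM that a two-sided interval gives for 0 counts). Intervals are exact two-sided 95% Poisson or Clopper-Pearson intervals and cover counting error only. The muscle genes stood where the tissue label puts them: the 6 skeletal muscle markers, which include Acta1 and Ckm, together had 87583 counts in replicate 1 and 107939 in replicate 2. The libraries differed in other tissue. The 10 epidermis and hair markers had 4 counts in replicate 1 and 1285 in replicate 2, and 9 of the 10 were at 0 in replicate 1. The 5 Schwann cell markers had 1447 counts in replicate 1 and 3570 in replicate 2. The 6 fibroblast and matrix markers had no common direction. Their sum was 36893 counts in replicate 1 and 25668 in replicate 2, which the collagens Col1a1 (12494 and 6976 counts) and Col3a1 (21692 and 15727) carried. Dcn (814 and 969 counts) and Lum (144 and 252) were lower in replicate 1 by Fisher's exact test (adjusted p = 0.0262 and 1.3e-05). In bulk tissue, fewer cells of a type and less RNA per cell cannot be told apart.

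The member with the most counts over both libraries, Hoxa10, was read from a pair of starts, so the 250 bases before each are shown, 5′ to 3′ on the gene's strand. The sequences are those of RefSeq for GRCm38.p6, the mm10 build of the files. The upstream start is preceded by chr6:52240855-52241104 and the start of the first coding exon by chr6:52234940-52235189, both on the minus strand. Capitals mark TATAAA or CCAAT on either strand.
Hoxa10 upstream promoter: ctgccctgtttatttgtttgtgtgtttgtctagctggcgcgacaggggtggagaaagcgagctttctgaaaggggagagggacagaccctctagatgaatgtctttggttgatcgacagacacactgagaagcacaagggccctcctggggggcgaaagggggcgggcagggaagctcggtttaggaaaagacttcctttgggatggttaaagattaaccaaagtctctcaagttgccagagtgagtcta
Hoxa10 coding-exon promoter: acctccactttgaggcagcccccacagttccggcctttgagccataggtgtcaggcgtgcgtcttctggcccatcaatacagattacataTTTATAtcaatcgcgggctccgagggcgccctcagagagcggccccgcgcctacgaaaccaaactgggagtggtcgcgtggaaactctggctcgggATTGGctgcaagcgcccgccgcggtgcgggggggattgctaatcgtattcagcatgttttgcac
The RefSeq table gave 25 such windows for 23 of the 42 genes, and the start of 9 windows was also the start of a counted model. Over the full windows, from 250 bases before to 50 bases after the start, TATAAA was in 5 of the members' 25 and in 13.6% of all 32851 windows, and CCAAT was in 15 of 25 and in 37.4% of all. Neither motif was in the window of the upstream Hoxa10 start, and both were in that of the coding-exon start. A match to these letters is a description and not a shown binding site.

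Spliced transcripts of Hoxa10, Hoxa9 and Hoxd8 differed at junctions that change the encoded protein, and the 30 bases across each are shown from the annotated transcripts. In the Hoxa10 and Hoxa9 lines, capitals are the 15 bases before the junction. In the first Hoxd8 line they mark the 3 bases that the second form lacks.
Hoxa10-201 junction: CTGAAATGAGTCAAGgcagttccaaaggcg
Hoxa10-202 junction: AGAAGGACTCCCTGGgcagttccaaaggcg
Hoxa9-202 junction: GGCGCCGGACGGCAGttgatagagaaaaac
Hoxd8-201 junction: ggatgagaccacaagCAGctcctggtagac
Hoxd8-202 junction: ggatgagaccacaagctcctggtagacgga

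The Hoxa cluster (chromosome 6, minus strand) held the largest share of the Hox counts. The 39 Hox genes had 298 counts in replicate 1 and 261 in replicate 2. Hoxa genes took 138 of these in replicate 1, or 46.3% (interval 40.5 to 52.2%), and 158 in replicate 2, or 60.5% (54.3 to 66.5%). Hoxd genes (chromosome 2) followed with 88 and 52 counts, or 29.5% (24.4 to 35.1%) and 19.9% (15.3 to 25.3%). Hoxc genes (chromosome 15) had 66 and 46 counts, or 22.1% (17.6 to 27.3%) and 17.6% (13.2 to 22.8%). Hoxb genes (chromosome 11) had 6 and 5 counts, or 2.01% (0.742 to 4.33%) and 1.92% (0.625 to 4.41%). As levels, the clusters summed to 146 ± 11.2 CPM for Hoxa, 69.4 ± 26.5 for Hoxd, 55.5 ± 15.04 for Hoxc and 5.44 ± 0.803 for Hoxb (mean ± SD, n = 2). The order of Hoxd and Hoxc was within their spread between libraries, while Hoxa was above and Hoxb below the other clusters in both libraries.

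By position, the counts sat in the middle and posterior groups. Paralog groups 9 to 11, 10 genes, took 174 of 298 counts in replicate 1, or 58.4% (interval 52.6 to 64.0%), and 147 of 261 in replicate 2, or 56.3% (50.1 to 62.4%). Groups 4 to 8, 15 genes, took 115 and 99 counts, or 38.6% and 37.9%. Groups 1 to 3 had 7 and 9 counts over 8 genes, and groups 12 and 13 had 2 and 6 counts over 6 genes. Group 10 was the highest single group, with 105 counts in replicate 1 (35.2%) and 90 in replicate 2 (34.5%), and all 3 of its genes were counted. Group 11, which patterns the segment that the gastrocnemius spans, had 16 counts in each library, of which Hoxa11 gave 13 in replicate 1 and 15 in replicate 2.

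**Figure D1:**
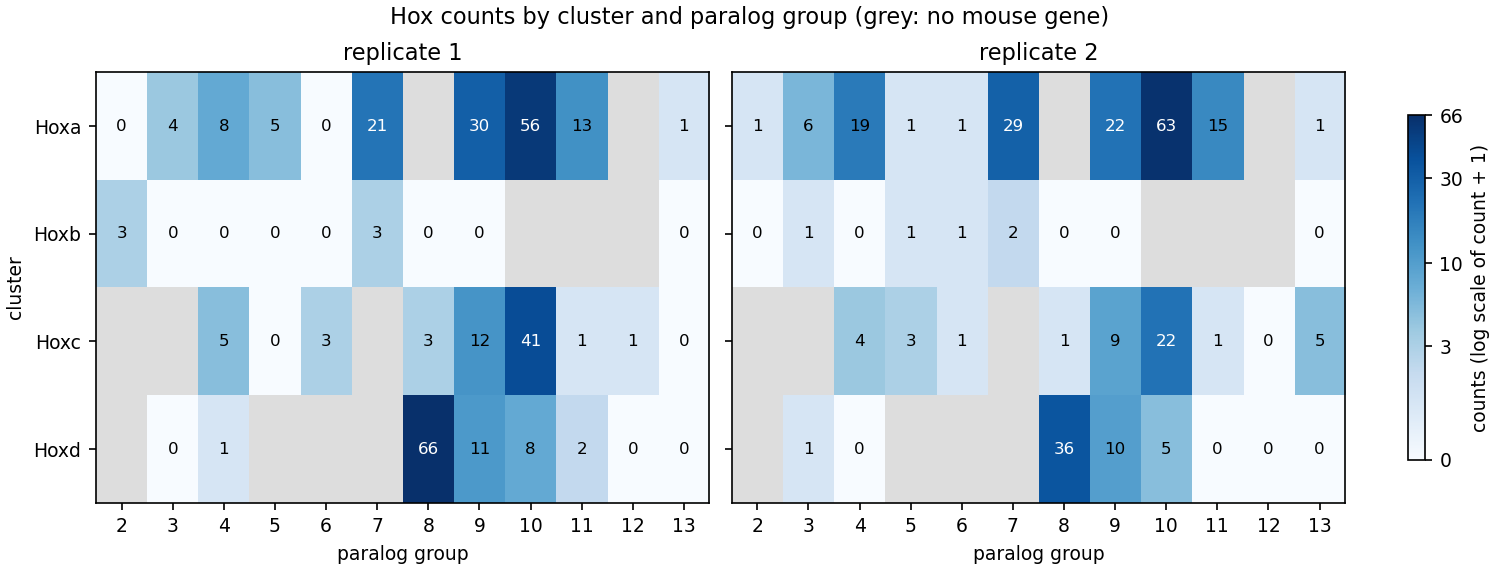
Counts of Hox genes by cluster (rows) and paralog groups 2 to 13 (columns), replicate 1 on the left and replicate 2 on the right, with shading on a log scale of count + 1 and grey where the mouse has no gene. Hoxa7, Hoxa9, Hoxa10, Hoxc10 and Hoxd8 are the darkest cells, with 21 to 66 counts in replicate 1 and 22 to 63 in replicate 2, followed by Hoxa11 (13) in replicate 1 and Hoxa4 (19) in replicate 2, while the Hoxb row holds at most 3 counts per gene.

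Of the 42 members, 20 were counted in both libraries, 4 in replicate 1 only, 8 in replicate 2 only and 10 in neither. Among those at 0 counts were Hoxb1, Hoxb4, Hoxb8, Hoxb9, Hoxb13, Hoxd1, Hoxd12, Hoxd13 and Tbx5. The 13 members with at least 10 counts over both libraries entered the test of library against library. That test was a two-sided Fisher's exact test on 11027 genes with Benjamini-Hochberg adjustment, and it compares 2 libraries, not conditions. It called 1074 genes, or 9.74%, at an adjusted p under 0.05, and 1 of the 13 members, which is close to that background. Of the 13, 6 were higher in replicate 1 and 7 lower, with a median log2 ratio of -0.08 beside 0.04 over all genes tested.

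Hoxd8 was the member called. It had 66 counts in replicate 1 (66.1 CPM, interval 51.1 to 84.1) and 36 in replicate 2 (35.1 CPM, 24.6 to 48.6). The 2 intervals do not overlap, and replicate 1 was higher by 0.90 on the log2 scale (Fisher's exact test, adjusted p = 0.0261). The call rests on counting error alone: edgeR's exact test with a preset biological coefficient of variation of 0.1 gave an adjusted p of 0.225. Hoxc10, a gene of the hindlimb and the lumbar spinal cord, had 41 counts in replicate 1 (41.1 CPM, 29.5 to 55.7) and 22 in replicate 2 (21.4 CPM, 13.4 to 32.5). Its log2 ratio of 0.92 was as large as that of Hoxd8 but missed the threshold after adjustment (Fisher's exact test, p = 0.0160, adjusted p = 0.115). Of the 6 fibroblast and matrix markers, 2 were called higher and 2 lower in replicate 1, as given above, and their part in these values was not tested.

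Hoxa10 differed between the libraries by less than its counting error. It had 56 counts in replicate 1 (56.1 CPM, 42.4 to 72.8) and 63 in replicate 2 (61.4 CPM, 47.2 to 78.5), a mean of 58.7 ± 3.76 CPM (SD, n = 2). That level ranked 3007 among the 17859 mouse genes with counts. Hoxa9, its neighbour, had 30 counts in replicate 1 and 22 in replicate 2. Hoxa7 had 21 and 29 counts, and Hoxa11 had 13 and 15. For each of these 4 genes the intervals of both libraries overlap. Hoxa4, an anterior gene, had 8 counts in replicate 1 (8.01 CPM, 3.46 to 15.8) and 19 in replicate 2 (18.5 CPM, 11.1 to 28.9), a difference that missed the threshold (Fisher's exact test, p = 0.0528, adjusted p = 0.245). Hoxc9 had 12 counts in replicate 1 and 9 in replicate 2, Hoxd9 had 11 and 10, and Hoxd10 had 8 and 5. Hoxa3 had 4 and 6 counts.

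**Figure D2:**
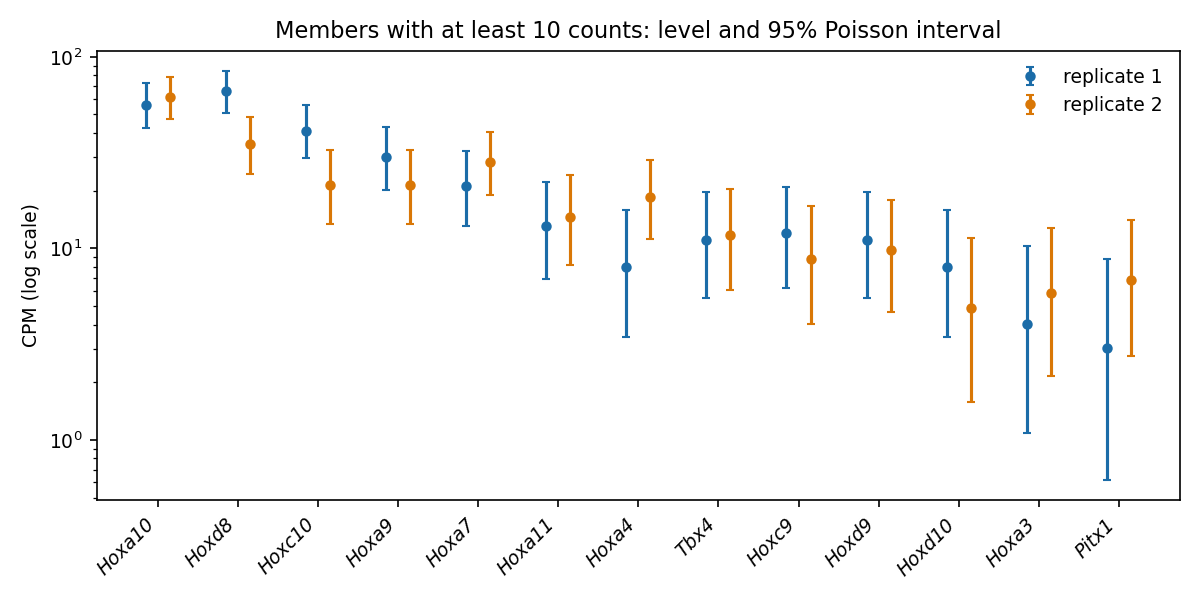
Level in CPM (log axis) of the 13 members with at least 10 counts, with exact 95% Poisson intervals, replicate 1 in blue left of replicate 2 in orange. Hoxd8 is the gene whose intervals do not overlap, and below Hoxa7 the intervals of neighbouring genes overlap widely.

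Among the limb identity genes, the hindlimb pair was read and the forelimb gene was not. Tbx4 had 11 counts in replicate 1 (11.0 CPM, interval 5.50 to 19.7) and 12 in replicate 2 (11.7 CPM, 6.04 to 20.4). Pitx1 had 3 counts in replicate 1 (3.00 CPM, 0.620 to 8.78) and 7 in replicate 2 (6.82 CPM, 2.74 to 14.1). Tbx5 had 0 counts in both, which allows up to the 3 counts given above. Tbx4 intervals in both libraries thus lay above the Tbx5 limit, whereas those of Pitx1 reach below it. No forelimb muscle was part of the series, so how these levels differ between limbs was not analysed here.

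The members with fewer than 10 counts were read too thinly to rank. Hoxc4 had 5 counts in replicate 1 and 4 in replicate 2, Hoxa5 had 5 and 1, and Hoxb7 had 3 and 2. Hoxc6 and Hoxc8 each had 3 counts in replicate 1 and 1 in replicate 2, while Hoxa13 and Hoxc11 had 1 in each. Replicate 1 alone held Hoxb2 with 3 counts, Hoxd11 with 2, and Hoxc12 and Hoxd4 with 1 each. Replicate 2 alone held Hoxc13 with 5 counts, Hoxc5 with 3, and Hoxa2, Hoxa6, Hoxb3, Hoxb5, Hoxb6 and Hoxd3 with 1 each. Hoxc13, known for its role in the hair follicle, was read 5 times in replicate 2 and 0 times in replicate 1, as were the hair and skin keratins Krt71 (131 counts in replicate 2) and Krt5 (35 counts in replicate 2). All 5 Hoxc13 counts matched the annotated spliced Hoxc13-201. The part of skin in the Hoxc13 counts was not tested.

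Most Hox counts lay on models of annotated transcripts. Known models, which match every junction of an annotated transcript, held 242 of 298 Hox counts in replicate 1, or 81.2% (76.3 to 85.5%), and 206 of 261 in replicate 2, or 78.9% (73.5 to 83.7%). Over all annotated mouse genes the Known share was 72.5% in replicate 1 and 75.4% in replicate 2. Genomic models, mostly unspliced reads that follow no annotated structure, held 7.05% and 8.05% of Hox counts, beside 2.92% and 3.25% over all genes. Models of 2 exons, the structure of most Hox genes, held 82.9% of Hox counts in replicate 1 and 82.0% in replicate 2. A model touched the coding sequence of its own gene for 99.0% of Hox counts in replicate 1 and 95.8% in replicate 2.

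Most Hoxa10 counts lay on models with the upstream start, 5915 bases before the start of Hoxa10-202. The first exon of Hoxa10-202 is called the first coding exon here, although the upstream exon of Hoxa10-201 also holds 10 coding bases. Starts are those of the models, which follow the annotation. Models from the upstream start held 36 of 56 counts in replicate 1, or 64.3% (50.4 to 76.6%), and 37 of 63 in replicate 2, or 58.7% (45.6 to 71.0%). Those from the coding-exon start held 18 of 56, or 32.1% (20.3 to 46.0%), and 18 of 63, or 28.6% (17.9 to 41.3%). The remaining counts began inside the intron, 1 in replicate 1 and 8 in replicate 2, or had 1 exon, 1 count in replicate 1. The leading form, Hoxa10-201, had 31 counts in each library and removes an intron of 7497 bases. It joins 10 coding bases of its own first exon, which hold the ATG in the junction shown above, to the 272 coding bases of the shared exon, and is annotated with 94 residues including the recognition helix of the homeodomain. Hoxa10-202, with 18 counts in each library, removes 1178 bases and encodes 416 residues with the same helix. Both forms therefore share the homeodomain exon. Spliced models without any part of the 416-residue form's first exon held 60.7% of the gene's counts (46.8 to 73.5%) in replicate 1. In replicate 2 they held 68.3% (55.3 to 79.4%). An NNC model, the class for reads with a junction outside the annotation, ran from the upstream start through part of the first coding exon, with 3 counts in replicate 1 and 2 in replicate 2. The rest of the upstream counts were Hoxa10-204, with 1 and 4 counts, and another NNC model with 1 and 0.

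**Figure D3:**
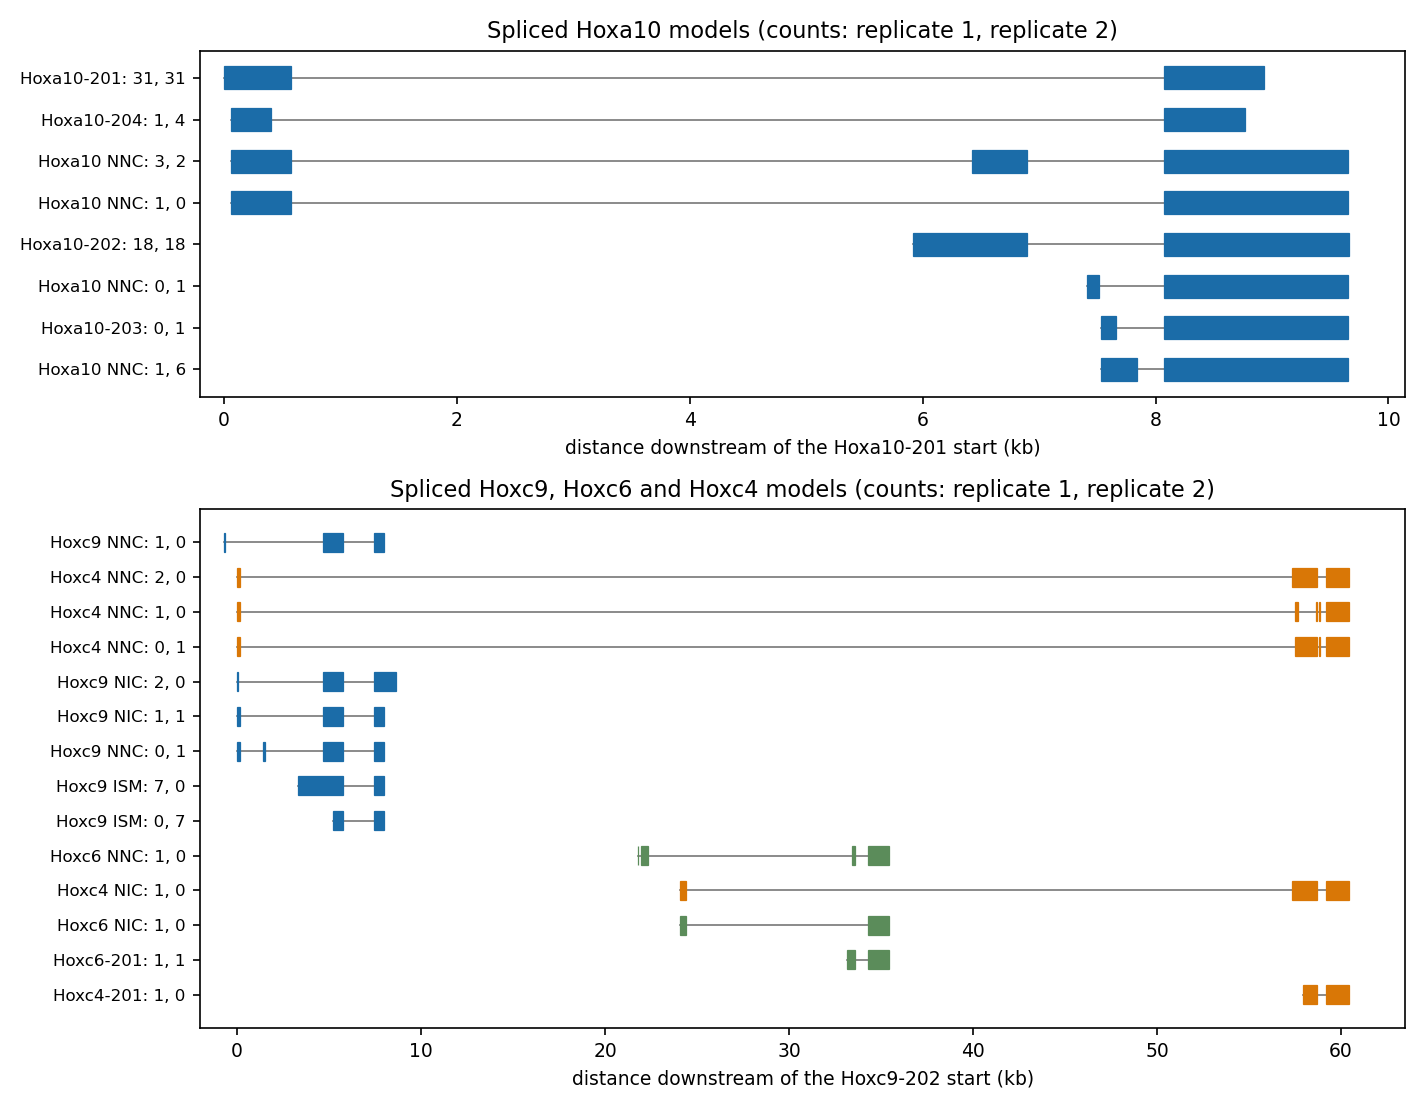
Spliced models by distance from the Hoxa10-201 start (top) and the Hoxc9-202 start (bottom) in kb, with exons as boxes, introns as lines and counts for replicates 1 and 2 beside each name. Most Hoxa10 counts fall on models that begin near 0 kb, and Hoxc4 models begin as far upstream as the first exon of Hoxc9.

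Spliced Hoxa9 counts lay mainly on forms with an intact or an internally spliced first exon. Hoxa9-201, which keeps the whole first exon and encodes 271 residues with the homeodomain helix, had 11 counts in replicate 1 and 7 in replicate 2, or 36.7% and 31.8% of the gene's counts. Hoxa9-202, which has a different annotated start, removes 173 bases from within that exon, as in the junction shown above. It is annotated with 105 residues and no homeodomain helix. It had 6 counts in replicate 1 and 7 in replicate 2, or 20.0% (7.71 to 38.6%) and 31.8% (13.9 to 54.9%). Reads of 1 exon gave 11 and 5 counts, or 36.7% and 22.7%. Other spliced models gave the remaining 2 and 3 counts. The intervals of the intact and internally spliced forms overlap in both libraries, so their order was not resolved at this depth.

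Hoxd8 used a pair of acceptors 3 bases apart at its only intron. The upstream acceptor (Hoxd8-201, 289 residues) had 41 of 66 counts in replicate 1, or 62.1% (49.3 to 73.8%), and 17 of 36 in replicate 2, or 47.2% (30.4 to 64.5%). The downstream acceptor (Hoxd8-202, 288 residues) had 21 counts, or 31.8% (20.9 to 44.4%), in replicate 1 and 16 counts, or 44.4% (27.9 to 61.9%), in replicate 2. The coding sequences of the forms differ by the 3 capital bases in the junction shown above and so by 1 residue. The annotated transcripts also differ in start and end, with 2634 bases for Hoxd8-201 and 1758 for Hoxd8-202. The upstream acceptor was the more used in replicate 1, while in replicate 2 the pair was even within counting error.

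Tbx4 was read from several starts. Tbx4-203, of 9 exons and 552 residues, had 5 counts in each library. Tbx4-202, whose start lies 10343 bases downstream and which encodes 452 residues, had 1 count in replicate 1 and 3 in replicate 2. Tbx4-201, with its start 3641 bases downstream of Tbx4-203 and the same 552 residues, had 2 counts in replicate 1 and 0 in replicate 2. A first exon outside the annotation had 2 counts in replicate 1 and 1 in replicate 2. At 11 counts in replicate 1 and 12 in replicate 2, the share of Tbx4-203 was 45.5% (16.7 to 76.6%) and 41.7% (15.2 to 72.3%). Pitx1 was read as its annotated form of 3 exons, Pitx1-201, which took all 3 of its reads in replicate 1 and all but 1 of 7 in replicate 2.

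**Figure D4:**
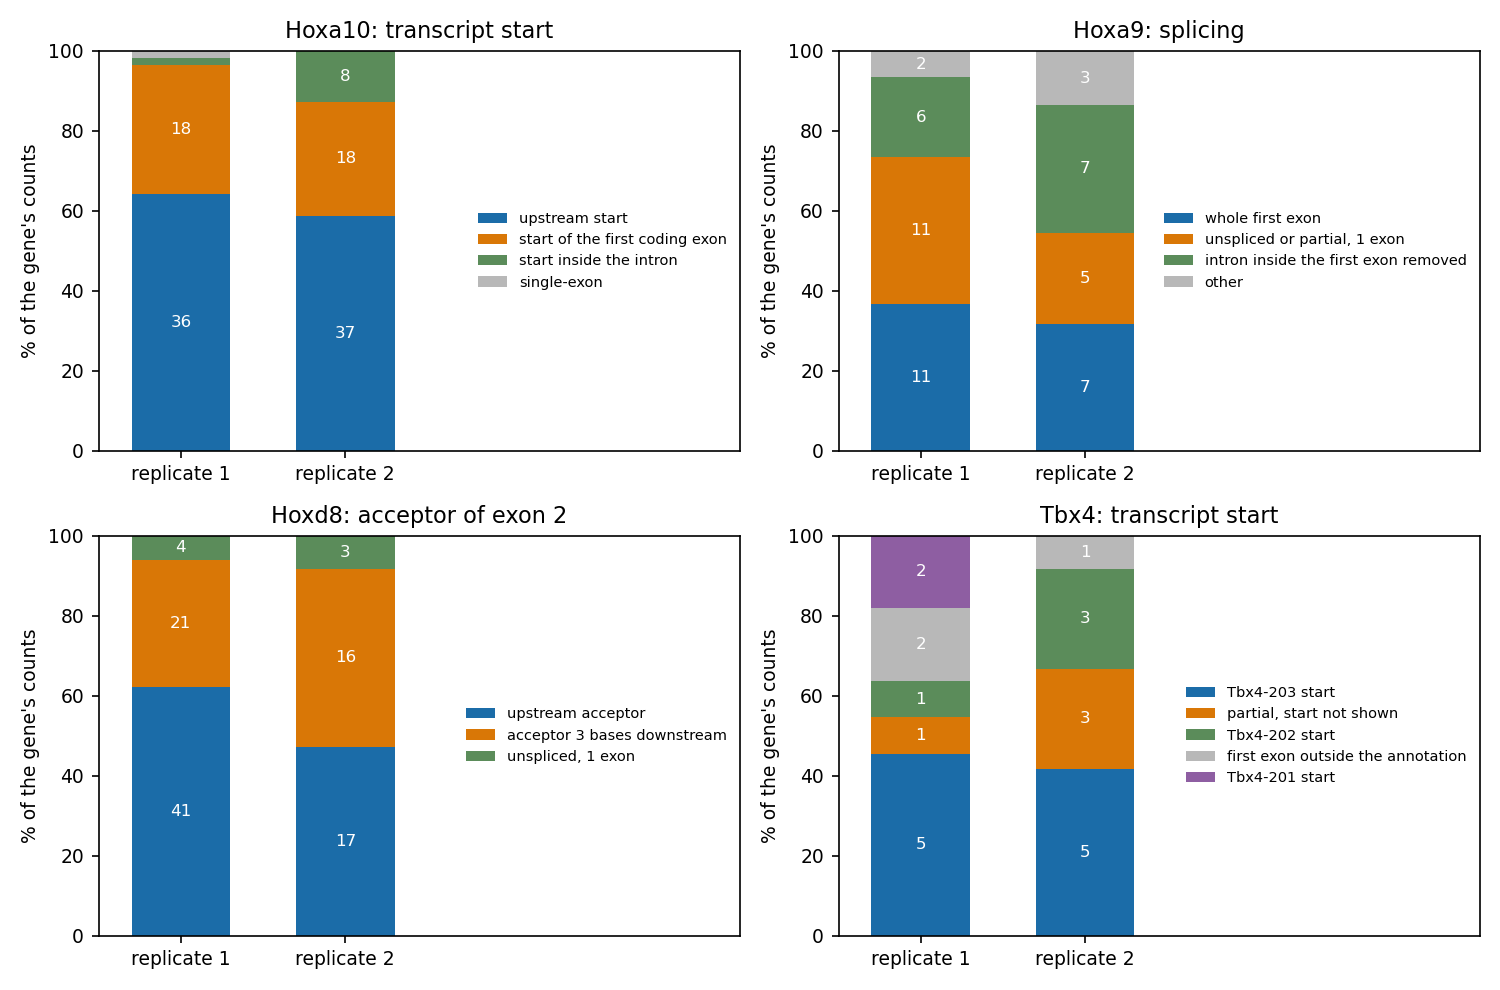
Share of each gene's counts by transcript start (Hoxa10, Tbx4), by splicing of the first exon (Hoxa9) and by acceptor of exon 2 (Hoxd8), as stacked bars with counts inside, replicate 1 left of replicate 2. The upstream start leads for Hoxa10 in both libraries, and the Hoxd8 acceptors are closer in replicate 2.

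The other members with at least 10 counts were read mainly as 1 annotated form. In replicates 1 and 2, Hoxc10-201 held 39 of 41 and 21 of 22 counts, and Hoxa11-201 held 12 of 13 and 13 of 15. Hoxa7-201 held 17 of 21 and 23 of 29 counts, and Hoxa4-201 held 7 of 8 and 18 of 19. Hoxd9-201 held 11 of 11 and 8 of 10, and Hoxd10-201 held 8 of 8 and 4 of 5. Hoxc9 and Hoxa3 stood apart. Hoxc9 had no Known model: 7 of its 12 counts in replicate 1 and 7 of 9 in replicate 2 were partial matches (ISM) that hold the last exons, with the junction between them, but not the annotated first exon. When only Known, NIC (annotated splice sites in another combination) and NNC models were kept, Hoxc9 averaged 2.98 CPM, against 10.4 CPM with all models. Hoxa3, the longest Hoxa gene, had 1 count on its annotated form of 5 exons, in replicate 2, and the rest were partial, unspliced or unannotated models.

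Some genes of the same cluster shared first exons, also across other Hox genes that lie between them. In Hoxc, a first exon that begins at the Hoxc9-202 start was read with the same donor site in models of Hoxc9 and Hoxc4. It led to Hoxc4 in 3 counts of replicate 1 and 1 of replicate 2, and to Hoxc9 in 1 count of replicate 1 and 2 of replicate 2. The Hoxc4 models skip everything between in an intron of 57212 or 57384 bases. They were 4 of the 9 Hoxc4 counts, against 1 for the annotated Hoxc4-201. An unspliced model with the start and end of Hoxc4-201 held 3 more, all in replicate 2. A second first exon was read once with Hoxc4 and once with Hoxc6, both in replicate 1. In Hoxa, 1 Hoxa9 count in replicate 2 lay on a model with the first exon and donor site of Hoxa10-204. That Hoxa10 form had 1 count in replicate 1 and 4 in replicate 2. In Hoxd, the annotated gene Gm28309 joined exons of Hoxd11 and Hoxd10, including coding sequence of both, in 1 count of each library.

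Some models carry the name of a gene other than the one they lie on. Of the Hoxa3 counts in replicate 2, 1 lay on Hoxa4 and touched no Hoxa3 exon, and 1 spliced model held Hoxa5 coding sequence. Of the 3 Hoxc5 counts, 1 was a model at the last base of Hoxc10. Leaving out models that miss their own coding sequence moved Hoxc5 to 0.487 CPM, against 1.46 CPM with all models. These counts are few, and they set the level of Hoxc5.

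Among the Hox genes, reads on the opposite strand were most numerous at Hoxc10. Unannotated models on the opposite strand of its exons had 12 counts in replicate 1 and 23 in replicate 2, beside 41 and 22 counts for Hoxc10 itself. A single-exon model on the minus strand at chr15:102969509-102971893 gave the 12 counts, and one at chr15:102969509-102972745 gave 20 of the 23. Both cover the last exon of Hoxc10 and end within its intron, and the other 3 counts came from a model that meets only the first base of Hoxc10. Opposite Hoxc9 there were 2 and 6 counts. Opposite Hoxd10 there were 6 and 2, all on models that meet only its first base, and Hoxd10 itself had 8 and 5. Hoxd11 had 5 and 2 opposite counts on unannotated models, beside 2 and 0 of its own. Hoxd3os1, an annotated antisense gene, had 12 counts in replicate 1 and 8 in replicate 2, of which 7 and 5 lay opposite Hoxd8 exons. Its models also gave 5 and 2 counts opposite each of Hoxd3 and Hoxd4, beside 0 and 1 for Hoxd3 itself and 1 and 0 for Hoxd4. Of 46 other annotated genes inside the clusters, 17 had counts, 32 in replicate 1 and 29 in replicate 2. They included Hoxa11os (3 and 7), Hoxaas3 (5 and 1), Hotairm1 (2 and 2), Mir196b (1 and 2) and the long non-coding RNA Hotair (1 and 1). Whether the library construction kept strand is not given in the sources used here.

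**Figure D5:**
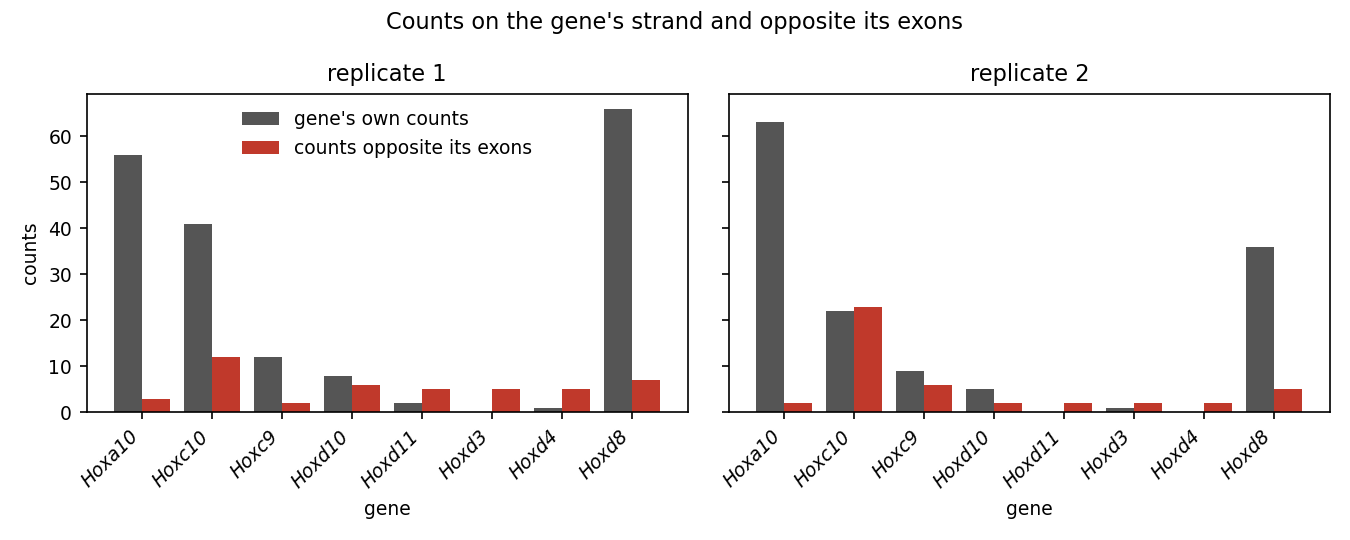
Counts of each gene (grey) and counts of models on the strand opposite its exons (red), for members with at least 4 opposite counts over both libraries, replicate 1 left of replicate 2. Opposite counts at Hoxc10 are 12 in replicate 1 and 23 in replicate 2, where they reach the gene's own 22.

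Genes of the TALE homeodomain class, which includes partners that bind DNA with Hox proteins, were read in both libraries. The listed TALE genes were all counted (11 of 11), with 131 counts in replicate 1 and 139 in replicate 2. Of the 8 tested, 0 were called by Fisher's exact test, beside 9.74% of all genes tested. The highest were Pknox1 (28 and 40 counts), Tgif2 (20 and 24), Meis3 (13 and 22) and Pbx2 (20 and 14), and Pbx4 was the lowest (1 and 2). Of 24 transcription factors of the limb bud and limb mesenchyme, 20 were counted, with 407 and 439 counts. Of these factors, 13 were tested and 0 called, beside the same 9.74%. Their highest were Meox2, a homeodomain factor of limb muscle precursors (71 and 78 counts), the mesenchyme factor Prrx1 (76 and 72), Tbx2 (75 and 60) and Osr1 (28 and 42). Emx2 and Isl1 had 1 count each in replicate 2, and Lmx1b, Alx4, Lhx9 and Tcf21 had none in either library. Of the tested genes on these lists, 0 had an unadjusted p under 0.05 by Fisher's exact test. Over all 11027 genes tested, 2319 did (21.03%). These backgrounds, the 9.74% called and the 21.03%, are not matched for depth. They include genes such as Acta1 (51040 and 65561 counts), where smaller differences reach the threshold. By edgeR's exact test, 0 of the tested genes on these lists were called at either preset variation. Of all 11027 genes, it called 172 at a preset variation of 0.1 and 56 at 0.2, so 0 calls in lists this short say little about these genes. The median log2 ratio of replicate 1 over replicate 2 was 0.08 for the TALE genes and -0.12 for the limb factors. It was 0.04 over all genes tested. Pitx3, a paralog of Pitx1, had 50 counts in replicate 1 and 42 in replicate 2. The 8 ParaHox and even-skipped relatives, Cdx1, Cdx2, Cdx4, Gsx1, Gsx2, Pdx1, Evx1 and Evx2, had 0 counts in both libraries.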

How the data were processed

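Per the labels, the libraries are long-read RNA sequencing aligned to mm10. Each deposited table gives 1 whole-number count per transcript model, and the deposited annotations give each model's exons on GENCODE M21 genes with classes in the style of TALON. The library steps and read filters were not found in the labels or headers. Counts were summed per gene; spike-in and unannotated loci were left out of the totals. Members with at least 1 count are given in both libraries, and transcript structures for those with at least 10 counts and for Pitx1, Tbx4 and Tbx5. The members, lists and transcript forms were chosen with earlier results of these data known. Some members and listed genes are not reported here. Fisher's exact test (SciPy 1.17.1) compared each gene between the libraries, with the log2 ratio computed after adding 0.5 to each count. Ends of models follow annotated ends, so read extents are not shown. The test was checked on simulated counts that hold counting error only, with changes placed in well-counted genes. That check does not cover spread beyond counting error or members with few counts. Alternatives used edgeR 4.0.16 and DESeq2 1.42.0 (R 4.3.3), other count minimums, transcript classes and lengths. Replicates name 1 shared donor entry, so SDs measure only the spread between these libraries. The p-values of Fisher's exact test compare the libraries and hold counting error only.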

Additional observations from a re-analysis of the deposited data

Results flagged for a closer look

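The unannotated models opposite Hoxc10 drew a closer look because they lie outside the gene counts and exceed the limit that a count of 0 allows (3 counts) in both libraries. They had 12 counts in replicate 1 and 23 in replicate 2, beside 41 and 22 counts of Hoxc10 itself, and no other member had more than 3 such counts in each library. All 12 counts in replicate 1 and 20 of the 23 in replicate 2 are single-exon models that cover the last exon of Hoxc10 and end at the same base of its intron. Their strand was taken from the deposited annotation, and whether they are separate transcripts was not tested.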

How the results depend on the processing

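Depth limits these genes: 29 of the 42 members had fewer than 10 counts over both libraries and were not tested. With Known, NIC and NNC models alone the Hoxa sum was 129 CPM, and with models of 2 or more exons it was 131 CPM, beside 146 CPM with all models. Models of 2 or more exons also moved the Hoxb sum to 4.45 CPM and the Hoxb share to 1.78% of Hox counts. Counts divided by the length of the longest annotated transcript gave a Hoxb share of 2.46% and a share of 55.2% on paralog groups 9 to 11. The other cluster sums and shares moved by less than 1 SD under these settings and under TMM or DESeq2 scaling. Without replicate 1 or without replicate 2, the share on groups 9 to 11 was 56.3% to 58.4% and the Hoxa share 46.3% to 60.5%. Among single members, Hoxa3, Hoxb3, Hoxc5, Hoxc9 and Hoxc11 were over 1.5 times lower with Known, NIC and NNC models alone. The genes called between libraries numbered 902 to 1093 under other count minimums, classes and scalings, but 172 and 56 under edgeR's exact test with a preset variation of 0.1 and 0.2, beside 1074 as reported. Hoxd8 had an adjusted p of 0.0223 to 0.0437 under those other minimums, classes and scalings, and 0.225 and 1 under edgeR's exact test, whose preset variation allows for more than counting error. No paired analysis was possible because the series holds 1 group.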
